A study of Mus musculus with 2 samples.

Results

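The epithelial cells that came through a sort for lung endothelial cells were 54 of the 13815 barcodes (the droplet tags that stand for single cells) with at least 1000 detected genes and under 20% mitochondrial UMIs (unique molecular identifiers, each standing for 1 captured transcript molecule). They were chosen by their own reads, as the barcodes holding at least 3 of 6 epithelial genes: Epcam, Cdh1, Krt8, Krt18, Nkx2-1 and Lamp3. There were 29 among the 7234 barcodes of the control library, a share of 0.401%, with an exact 95% binomial (Clopper-Pearson) interval of 0.269 to 0.575%. There were 25 among the 6581 barcodes of the metastatic library, a share of 0.380% with an interval of 0.246 to 0.560%, so these shares overlapped widely. At least 2 of the endothelial genes Cdh5, Cldn5 and Egfl7 were also present in 18 of the 29 control members and in 18 of the 25 metastatic members.

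The study asked how the lung endothelium responds when circulating melanoma cells arrive. Wild-type male C57BL/6 mice aged 8 to 10 weeks were given PBS (control) or 200000 cells of B16-F10, a mouse skin melanoma line carrying a green dye, by tail vein, and lungs were taken after 6 h. Each of the 2 libraries pooled 2 mice, and cells were sorted on a PE-labelled antibody to PECAM1, an endothelial surface protein, with no gate on the leukocyte protein CD45. Transcripts were counted by droplet sequencing of their 3′ ends (10x Genomics). With 1 library in each group there was no replicate spread, so every difference between the libraries is a description of these 2 libraries with no test, the injected cells cannot be told apart from any other difference between them, and each interval covers counting error only.

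The alveoli, where blood takes up oxygen, are lined by 2 epithelial cell types that lie directly against the capillary endothelium. Flat alveolar type 1 (AT1) cells cover most of the surface and are the barrier through which gas passes. Cuboidal alveolar type 2 (AT2) cells make surfactant, a lipid and protein film that keeps alveoli open, store it in lamellar bodies, and act as the progenitors of AT1 cells after injury. In the airways above them, club cells secrete Scgb1a1 and ciliated cells clear mucus. The transcription factor NKX2-1 marks lung epithelium and drives the surfactant protein genes together with FOXA factors.

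Surfactant protein transcripts set these barcodes apart from the rest of the sort, so the DNA just before the start of Sftpb and Sftpa1 is shown. Sequences were taken from RefSeq (assembly GRCm38.p6, the assembly also called mm10), whose promoter table held 12 of the 15 AT2 marker genes used here. Both windows lie on the plus strand and end at the base before transcription starts: chr6:72304360-72304609 for Sftpb, and chr14:41131538-41131781 for Sftpa1, cut so as to hold no annotated transcript. Capitals mark 3 short words on either strand: CTCAAG, a core that NKX2-1 can bind, the related core CAAGTG, and for FOXA factors the core TGTTTGC. On the other strand a word appears here as its reverse complement.
Sftpb: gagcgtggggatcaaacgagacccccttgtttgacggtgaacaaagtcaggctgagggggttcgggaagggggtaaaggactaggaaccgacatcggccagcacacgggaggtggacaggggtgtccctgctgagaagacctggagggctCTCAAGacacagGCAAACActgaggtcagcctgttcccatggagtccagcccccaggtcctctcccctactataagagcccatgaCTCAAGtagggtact
Sftpa1: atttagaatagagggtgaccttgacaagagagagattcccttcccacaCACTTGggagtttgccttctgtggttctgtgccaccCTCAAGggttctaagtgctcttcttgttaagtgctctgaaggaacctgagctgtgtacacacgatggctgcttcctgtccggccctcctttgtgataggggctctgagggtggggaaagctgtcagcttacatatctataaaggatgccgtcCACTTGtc
The Sftpb window held CTCAAG 100 and 15 bases before the start and TGTTTGC on the other strand at 88 bases. The Sftpa1 window held CTCAAG at 166 bases and CAAGTG on the other strand at 202 and 14 bases. Such short words are common: of the 32851 promoters in the table, 13.3% held CTCAAG, 11.6% CAAGTG and 4.30% TGTTTGC in the 250 bases before the start. A match is therefore a description of the letters and not evidence of binding in these cells.

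The rule split the barcodes with little in between. In the control library 6975 barcodes held none of the 6 genes, 217 held 1, 13 held 2, 2 held 3, none held 4, 4 held 5 and 23 held all 6. In the metastatic library the counts were 6357, 185, 14, 0, 0, 3 and 22. The 2 control members with 3 genes, just inside the limit, had 4668 UMIs with all 15 AT2 markers in one and 3036 UMIs with none of them in the other. Of the barcodes just outside, 9 of 13 and 10 of 14 held Epcam with Cdh1, and 9 and 10 held at least 4 of 10 leukocyte markers. A single metastatic barcode outside the limit, with 6012 UMIs, held all 15 AT2 markers and 9.91% Sftpc. The leading genes of these members were not those of the sort's labelled cell type, the endothelial cell. However, 18 of 29 control and 18 of 25 metastatic members also held endothelial genes. Whether some of them held an endothelial cell as well was not tested.

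The members were large barcodes. Their UMI totals ran from 3036 to 53060 in the control library, with a median of 21659, and from 13536 to 69557 in the metastatic library, with a median of 23600. The medians over all barcodes were 6315 and 6581. More than 5000 genes, the upper limit in the study's own filter, were detected in 6 and 8 of them. A search for simulated doublets marked 1 of 29 and 2 of 25. Over all barcodes it marked 5.79% and 5.26%, shares fixed beforehand by an assumed doublet rate, so the counts do not show how many members were doublets. Mitochondrial UMIs made up a median of 5.19% and 4.12% in the members, against 2.68% and 2.70% in the endothelial barcodes, here the 6772 control and 6067 metastatic barcodes that held all of Cdh5, Cldn5 and Egfl7 and fewer than 3 of the epithelial genes. The libraries shared 16 barcode sequences, none of them a member.

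Most members were AT2-like, a name used here for barcodes with at least 10 of the 15 AT2 markers and at least 1% of UMIs from Sftpc, the AT2-specific surfactant protein. This held for 28 of 29 control members (96.6%, interval 82.2 to 99.9%) and for 23 of 25 metastatic members (92.0%, interval 74.0 to 99.0%). In the AT2-like members without endothelial genes, the 15 markers took 16.3 to 37.8% of a barcode's UMIs in the control library, with a median of 26.9%, and 17.6 to 38.7% in the metastatic library, with a median of 27.3%. Lamp3, a lysosomal membrane protein of lamellar bodies, and Nkx2-1 were part of the rule, so their presence is no finding. Epithelial genes outside the rule were present as well, with a median of 10 of 16 in these members of either library, among them Cldn3 and Cldn18, which seal epithelial junctions.

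**Figure D1:**
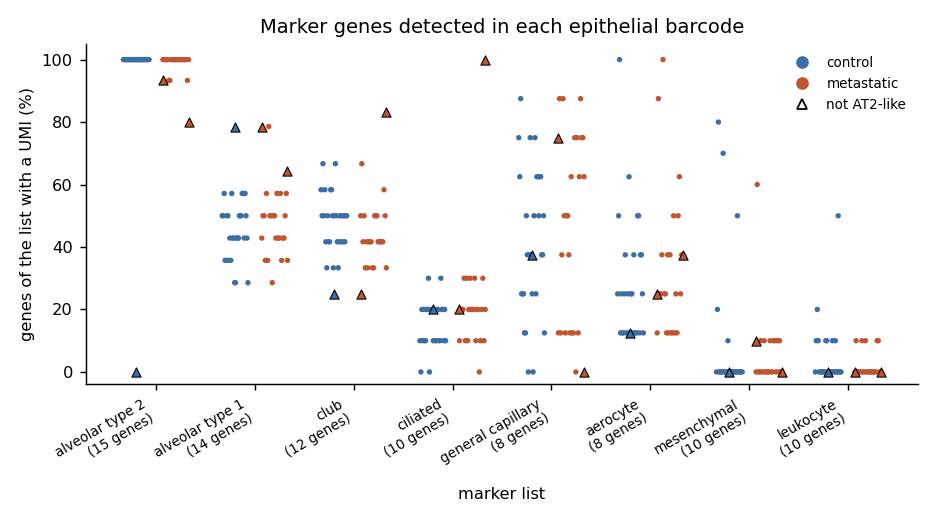
Each point is 1 epithelial barcode, and the vertical axis gives the percent of the genes of a marker list that had a UMI in it, by library (blue control, orange metastatic). Nearly all points of the AT2 list sit at or near 100%, and the triangles, the 3 barcodes that were not AT2-like, stand out in the AT1, club or ciliated lists.

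The 3 other members differed from each other as much as from the AT2-like ones. The smallest control member, with 3036 UMIs, held 11 of 14 AT1 markers and none of the AT2 markers. Its counts of 20 for Ager, the receptor that marks AT1 membranes, and 19 for Hopx, an AT1 cofactor, came with 0 UMIs of Pecam1 but with 11 UMIs over the 14 endothelial markers. This barcode was thus AT1-like by its markers.

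The largest member, in the metastatic library, had 69557 UMIs, of which 33410 were Scgb1a1, the main secreted protein of club cells. It also held 501 UMIs of the club cell secretoglobin Scgb3a2 and 247 of Cyp2f2, a club cell cytochrome P450. Alongside these it had 15 UMIs of Foxj1, the master regulator of motile cilia, and 31 of Tppp3. With 10 of 12 club and 10 of 10 ciliated markers in 1 barcode it was airway-like, and whether it was 1 cell or more was not tested. It carried 12 AT2 markers at low counts, with 169 UMIs of Sftpc, or 0.243%.

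The last of the 3, also metastatic, had 34353 UMIs and was marked as a doublet. It held 11 AT1 and 14 AT2 markers, with 68 UMIs of Ager and 221 of Sftpc (0.643%). Keratins were high in it, with 111 UMIs of Krt8 and 52 of Krt18, and it held 124 UMIs of Areg, an EGF receptor ligand. It also held 295 UMIs of endothelial markers, 10 of them Pecam1.

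Endothelial transcripts divided the members. By the number of Cdh5, Cldn5 and Egfl7 held, from 0 to 3, the control members were 4, 7, 4 and 14, and the metastatic members 3, 4, 5 and 13. The share with at least 2 was 62.1% (interval 42.3 to 79.3%) in the control library and 72.0% (interval 50.6 to 87.9%) in the metastatic library. Thinned to 2000 UMIs a barcode, the shares were 17.2% and 32.0%.

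A like measure in cells that should lack these genes gives a rough scale for RNA from other cells. Leukocyte barcodes, 187 and 220 with at least 4 of 10 leukocyte markers, had median totals of 6848 and 7442.5 UMIs. Of these, 35.3% and 41.4% held at least 2 of the 3 endothelial genes, and 19.3% and 23.6% after thinning. The thinned share of the control members was thus below that of the control leukocytes, and that of the metastatic members above theirs, within intervals that overlap for such small numbers.

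The amount of endothelial RNA ranged widely between members. Members without endothelial genes held 3 to 19 UMIs over the 14 endothelial markers in the control library and 4 to 18 in the metastatic library. Members with them held 8 to 522, with a median of 38, and 6 to 382, with a median of 103.5. Endothelial barcodes held a median of 126 in each library, with a lower quartile of 95. That quartile was reached by 5 control and 10 metastatic members.

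All of these 15 barcodes held at least 4 of 8 markers of general capillary cells. Of them, 4 and 5 also held at least 4 of 8 markers of aerocytes, the capillary cells that face AT1 cells. Endothelial barcodes held medians of 6 and 3 of these markers in each library. The 15 were picked by endothelial markers that include Plvap, Cd93 and Kdr of these lists, so the counts describe them and do not test a capillary type. Pecam1, the target of the sort, had a UMI in 2 of 11 and 1 of 7 members without endothelial genes, always a single UMI. It had a UMI in 11 of 18 and 16 of 18 members with endothelial genes, and in 98.7% and 98.3% of endothelial barcodes. Members with little endothelial RNA were therefore in a PECAM1-sorted library with no or 1 Pecam1 transcript counted, and how they entered was not tested.

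**Figure D2:**
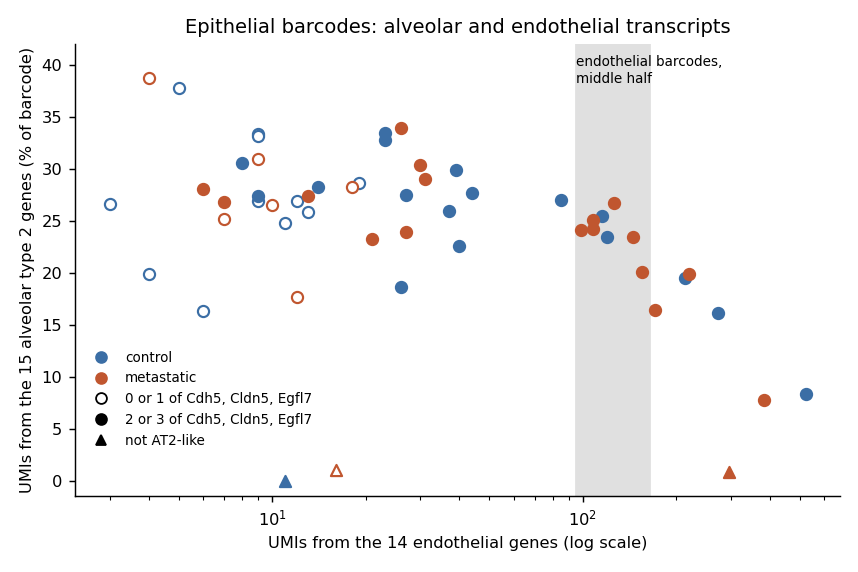
Each point is 1 epithelial barcode: the horizontal axis is its UMIs over 14 endothelial markers on a log scale, and the vertical axis the percent of its UMIs from 15 AT2 markers. Open points held 0 or 1 of Cdh5, Cldn5 and Egfl7, filled points 2 or 3, triangles were not AT2-like, and the gray band spans the quartiles of endothelial barcodes, which 5 control and 10 metastatic members reach or pass.

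Most other cell types left only low counts. Over the 17 AT2-like members without endothelial genes, all 6 proliferation genes, all 4 basal cell genes and all 6 neuroendocrine genes were at 0. Of the 10 leukocyte markers 7 were at 0, with 3 UMIs in all, and of the 8 melanoma markers 5 were at 0, with 6 UMIs in each library. Red cell genes were more widespread, with a median of 1 of 5 per member in each library. They summed to 28 and 10 UMIs (121 and 83.0 CPM), against 1885 and 1171 CPM in endothelial barcodes. There was an exception in each library. A control member, with 15069 UMIs, held 7 of 10 mesenchymal markers with 176 UMIs of Mgp, a matrix protein, and 156 of Gsn, an actin-severing protein. The mesenchymal list summed to 97 UMIs in the control members of this group and to 1 in the metastatic ones. A metastatic member, with 13536 UMIs, held 4 of 6 platelet markers, and that list summed to 5 UMIs in the control and 29 in the metastatic members of this group (21.6 and 241 CPM), against 137 and 230 CPM in endothelial barcodes.

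The genes that led the members over the endothelial barcodes, in the members without endothelial genes, were those of AT2 secretion. Levels are given as CPM, the UMIs of a gene scaled to 1000000 UMIs of the summed barcodes, and are compared within a gene only. Since the rule chose epithelial barcodes, this list describes them and is not a test. Chia1, an acidic chitinase, stood at 264 CPM against 0.0745 CPM, on only 7 endothelial UMIs. Sftpb stood at 8113 CPM against 3.85, and the collectins Sftpa1 and Sftpd, which bind microbes, at 23364 against 11.3 and 5124 against 2.49 CPM.

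Sftpc stood at 161420 CPM against 88.9 CPM in endothelial barcodes, of which 43.7% and 37.7% had a Sftpc UMI. Barcodes with 11 to 50 UMIs, which hold mostly free RNA, had 423 and 408 CPM of Sftpc. The other genes of the 20 with the highest ratio were the neutrophil chemokine Cxcl15, the chitinase-like Chil1, the calcium binder S100g, Sfta2, the tight junction gene Cldn3, the phosphate transporter Slc34a2, Egfl6, the carbonyl reductase Cbr2, Bex4, the sodium pump subunit Atp1b1, the complement component Hc and Wfdc2. Scgb1a1, Scgb3a2 and Lyz1 were on the list through a single barcode each, which held 99.7%, 100% and 96.7% of their UMIs. Lyz1 and Lyz2 are near-identical genes, so reads could have been split between them by the counting.

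Within the AT2-like members without endothelial genes, 11 control and 6 metastatic, the surfactant proteins were in every barcode, over a range of levels. Sftpc defined these members and the others are among the AT2 markers, so their presence is no finding. Sftpc ran from 122503 CPM over a median of 185380 to 267847 CPM in the control members, and from 133791 over 189662 to 267099 CPM in the metastatic members. The libraries overlapped almost entirely and each spanned about the same range. Sftpa1 ran from 11082 over 21848 to 45366 CPM in control and from 15874 over 27403 to 45032 CPM in metastatic members. Sftpb ran from 4712 over 9651 to 12864 CPM in control and from 4359 over 8199 to 9345 CPM in metastatic members.

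How far single barcodes varied was measured by a dispersion of 1 where only counting error acts. Over the 763 genes with at least 50 UMIs its median was 1.93, and 104 genes lay above 5. Lyz1 was highest at 261, since a metastatic member held 323 of the 334 UMIs, followed by Mgp at 240 and Gsn at 181, both from the control member with mesenchymal genes. Sftpc lay at 156, Lyz2, the AT2 and macrophage lysozyme, at 131 and Sftpa1 at 81.5. Lower values were found for regulators, at 1.68 for Etv5 and 1.38 for Cebpa, both transcription factors of AT2 lipid metabolism, and at 2.55 for Lpcat1, which makes surfactant phosphatidylcholine. Abundant genes have more counts with which to exceed counting error, so these values rank spread above counting and not spread itself.

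A few AT2-like barcodes departed from the others in single genes. Lyz1 reached 337 UMIs in a control member and 323 and 334 UMIs in 2 metastatic members, and no other member held more than 22. The metastatic member with 13536 UMIs combined 13.4% Sftpc with 11 of 14 AT1 markers, among them 48 UMIs of Ager and 9 of Hopx, and held 35 of the 47 UMIs of Rasl11a in the 6 metastatic AT2-like members without endothelial genes. Among members without endothelial genes, Lyz2 in 1 metastatic member was at 222 CPM, against 15462 CPM in the lowest control member.

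**Figure D3:**
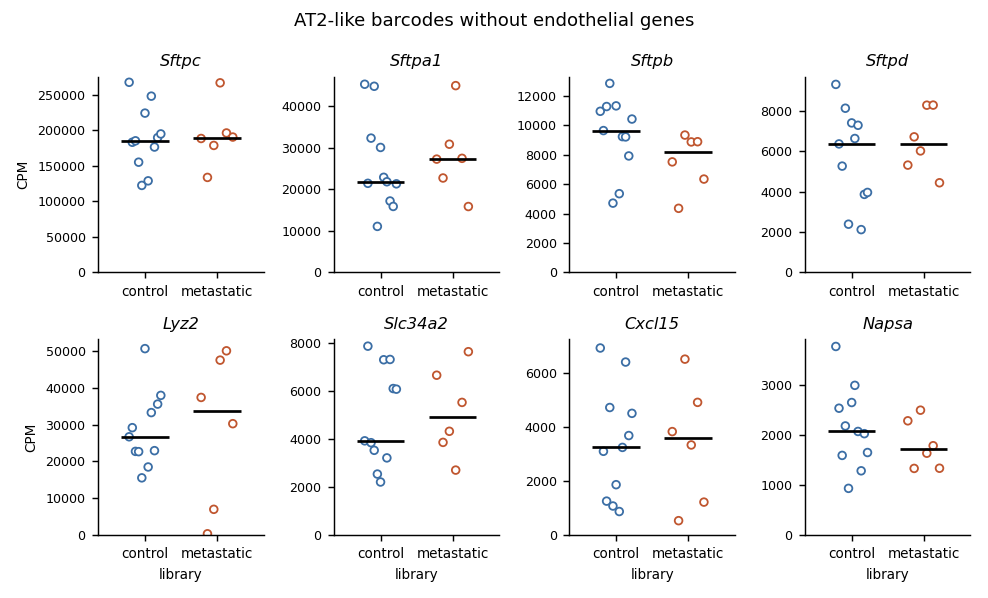
Points are the CPM values of single AT2-like barcodes without endothelial genes, 11 control and 6 metastatic, for 8 genes of surfactant and host defense, and the bar is the median. In each panel the libraries overlap, with the widest gap between barcodes in Lyz2, from 222 to 50678 CPM.

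The comparison of metastatic with control members asked whether the epithelial cells differed between the libraries at 6 h. Over the members without endothelial genes, 890 genes had at least 50 UMIs, of which 22 (2.47%) were at least 2-fold higher and 62 (6.97%) at least 2-fold lower in the metastatic library. Scaled by trimmed means (TMM) they were 29 and 47. The airway-like barcode made 36.6% of the metastatic UMIs here and held most of several genes at the high end. Scgb1a1 had 99 against 33421 UMIs, Scgb3a2 0 against 501, Cyp2f2 3 against 249, and Aldh1a1, a retinal dehydrogenase, 21 against 66. Lyz1 and Rasl11a, in which it held 0 and 3 UMIs, came from other barcodes. Lyz1, Hp, Rasl11a, Sec14l3, S100a6 and Gsta4 completed the 10 highest, and in each a single barcode held at least 51.9% of the metastatic UMIs.

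The 10 lowest ratios were those of Mgp, Pmvk, Cyp2b10, Apoc1, Ang, Itih4, Rgcc, Kcnq1ot1, Bmp1 and Tmem243. Mgp had 180 against 0 UMIs and so was at least 49.3-fold lower by a floor of 3 counts over the group. A single control barcode held 176 of those 180 UMIs. The other 9 had log2 ratios from -2.75 to -1.78. The airway-like barcode, with 36.6% of the metastatic UMIs, is part of the total by which these counts were divided. The median log2 ratio was -0.21 over these 890 genes, and -0.04 over the 763 genes counted below without that barcode. The remaining comparisons use only AT2-like members, a choice made after these values were seen. In those without endothelial genes, 763 genes were counted, of which 11 (1.44%) were at least 2-fold higher and 30 (3.93%) at least 2-fold lower. TMM scaling shifts all log2 ratios of this set by 0.21 downward and gave 4 and 52. Over all 28 and 23 AT2-like members 3114 genes were counted, of which 56 (1.80%) were at least 2-fold higher and 59 (1.89%) lower. For none of the 390 genes named or listed here did the CPM ranges of the libraries separate in the first set, nor in the second. Ranges of a gene with a member at 0 UMIs in each library cannot separate. The count over all genes is not given here, so nothing is read from this one.

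Surfactant and lamellar body genes had no ratio past 2-fold. Of the 29 genes of this list 19 had enough UMIs in AT2-like members without endothelial genes. None was 2-fold higher or lower, where 1.44% and 3.93% of all 763 genes were, so a count of 0 is near those shares. Their median log2 ratio was 0.13, beside -0.04 over all 763 genes. With TMM scaling the median was -0.08, so its sign depends on the scaling. Summed over members, Sftpc was at 192466 and, in the metastatic library, at 193656 CPM, a log2 ratio of 0.01 (interval -0.01 to 0.03). Sftpb, whose protein packs lamellar bodies, had a log2 ratio of -0.34 (interval -0.45 to -0.23), from 9988 to 7881 CPM.

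Enzymes and carriers of surfactant lipid had small ratios in both directions. Abca3, the pump that loads lipid into lamellar bodies, had a log2 ratio of 0.47 (interval 0.05 to 0.88), and Lpcat1 one of 0.50 (interval 0.07 to 0.92). Fabp5, a fatty acid carrier, had one of -0.67 (interval -1.10 to -0.26) and Scd1, a fatty acid desaturase, one of -0.30 (interval -0.49 to -0.11), while its relative Scd2 had one of 0.67 (interval 0.02 to 1.32). Fasn, the fatty acid synthase, stood at 532 and 556 CPM. In endothelial barcodes, where part of such counts is free RNA, Fabp5 and Scd1 had log2 ratios of 0.33 and 0.28.

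Of the 20 lung epithelial transcription factors 5 could be counted, of which Id2 was over 2-fold higher and none lower. Over all 763 genes 1.44% were higher and 3.93% lower. Id2, a helix-loop-helix inhibitor of distal lung progenitors, ran from 0 over 236 to 542 CPM in control and from 176 over 427 to 2069 CPM in metastatic members. Its log2 ratio was 1.08 (interval 0.55 to 1.62), and 1.13 (interval 0.80 to 1.47) over all AT2-like members. Without the highest metastatic barcode, which held 28 of its UMIs, the Id2 ratio was 0.42 and 0.97. Etv5, the FGF and ERK responsive factor that keeps AT2 identity, ran from 98.6 over 265 to 428 CPM in control and from 264 over 395 to 707 CPM in metastatic members. Its log2 ratio was 0.84 (interval 0.27 to 1.40), and 0.81 (interval 0.46 to 1.17) over all AT2-like members. Nkx2-1 was at 324 and 357 CPM.

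Among genes of the alveolar barrier, none of the 5 junction genes and none of the 6 transport genes counted was past 2-fold. These counts are near the shares over all 763 genes, 1.44% higher and 3.93% lower. Cldn18, the claudin that seals the alveolar epithelium, had a log2 ratio of 0.57 (interval 0.23 to 0.91). Aqp5, a water channel of AT1 cells, ran from 43.2 over 189 to 531 CPM in control and from 220 over 428 to 1551 CPM in metastatic members, a log2 ratio of 0.94 (interval 0.41 to 1.47). Ager, also an AT1 gene, had one of 0.52 (interval 0.20 to 0.84). The metastatic member with 11 AT1 markers is among these 6 barcodes, and over all AT2-like members the ratios were 0.41 for Cldn18, 0.91 for Aqp5 and 0.41 for Ager. There 11 junction genes were counted, 10 of them above 0, with a median of 0.40 beside 0.07 over all genes. The catenin Ctnnd1 was over 2-fold higher, where 1.80% of all 3114 genes were. Its log2 ratio was 1.03 (interval 0.40 to 1.69), and 0.83 without the highest metastatic barcode. The AT1 list as a whole had 5 genes counted, none past 2-fold.

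Host defense genes, 10 of 21 counted, had only Lyz1 past 2-fold, through the single barcode above. Of all 763 genes 1.44% were higher and 3.93% lower. Chil1 ran from 428 over 1425 to 2355 CPM in control and from 73.9 over 2314 to 5656 CPM in metastatic members, a log2 ratio of 0.73 (interval 0.50 to 0.95), which was 0.15 over all AT2-like members. Lyz2 was at 30202 and 30369 CPM.

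AT2 cells carry MHC class II, which presents peptides to helper T cells. Cd74, its invariant chain, had a log2 ratio of 0.24 (interval 0.09 to 0.40) in AT2-like members, at 3910 and 4625 CPM, and none of the 4 class II genes counted was past 2-fold. In endothelial barcodes Cd74 had a log2 ratio of 1.12, from 148 to 321 CPM. Over all AT2-like members the ratios of the 6 class II genes counted had a median of -0.07, beside 0.07 over all 3114 genes. Of the class I genes 3 were counted, none past 2-fold, and H2-D1 had a log2 ratio of 0.71 (interval 0.30 to 1.12). With 1.44% of all 763 genes higher and 3.93% lower, lists as short as these 2 cannot show fewer. H2-D1 and H2-K1 are close paralogs, so their counts are uncertain.

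Of 12 genes that respond to glucocorticoids 7 were counted over all AT2-like members, of which 2 were 2-fold lower, where 1.89% of all 3114 genes were, and none higher. 5 of the 7 lay below 0, with a median log2 ratio of -0.68 beside 0.07 over all 3114 genes. In endothelial barcodes all 12 were counted, of which 2 were 2-fold lower, where 0.335% of 12817 genes were, and none higher, with a median of -0.70. Zbtb16, a zinc finger repressor, ran from 0 over 133 to 293 CPM in control and from 0 over 0 to 284 CPM in metastatic members, with a UMI in 26 of 28 and 7 of 23, or in 11 of 28 and 1 of 23 after thinning to 2000 UMIs. Its log2 ratio was -2.03 (interval -2.80 to -1.33), against -1.33 in endothelial barcodes.

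Tsc22d3, the glucocorticoid-induced leucine zipper, had a log2 ratio of -1.03 (interval -1.62 to -0.48), with 95 and 38 UMIs, which was -0.84 without the highest control barcode. Fkbp5, a chaperone of the glucocorticoid receptor, was under the minimum with 34 and 5 UMIs. In AT2-like members without endothelial genes it had 12 and 0, at least 2.08-fold lower by the same floor. Klf9 had a log2 ratio of -0.68 (interval -0.99 to -0.38), and -1.26 (interval -2.09 to -0.52) without endothelial genes. Errfi1, a brake on EGF receptor signaling, had one of -0.94 (interval -1.18 to -0.70), whereas its ratio in endothelial barcodes was 0.13. Dusp1 and Sgk1 were at 0.24 and 0.14.

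Zbtb16, Klf9 and Tsc22d3 are also endothelial genes. Their levels in control endothelial barcodes were 451, 938 and 326 CPM, against 157, 422 and 150 CPM in the control AT2-like members. In AT2-like members without endothelial genes Zbtb16 had 33 and 5 UMIs, with a log2 ratio of -1.78 (interval -3.50 to -0.42). Tsc22d3 had 40 and 8 UMIs there, with one of -1.38 (interval -2.69 to -0.27). After thinning in a separate draw, Zbtb16 had a UMI in 4 of these 11 control and 2 of these 6 metastatic members, close to the level of 1 UMI, from which no difference can be read. The part of endothelial RNA in these ratios was not tested.

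Rgcc, a regulator of the cell cycle and of C5b-9 signaling, and Cyp2b10, a cytochrome P450 of the constitutive androstane receptor, were lower in the metastatic library and had lower levels in endothelial barcodes than in AT2-like members. Rgcc ran from 0 over 720 to 2819 CPM in control and from 41.0 over 119 to 1626 CPM in metastatic AT2-like members. The sums were 914 and 260 CPM, a log2 ratio of -1.82 (interval -2.10 to -1.54), and -1.37 (interval -1.84 to -0.92) without endothelial genes. Most metastatic members lay below the control median, although the ranges overlapped.

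Cyp2b10 ran from 0 over 221 to 1524 CPM in control and from 0 over 28.4 to 205 CPM in metastatic AT2-like members, with a UMI in 27 of 28 and 12 of 23. Its log2 ratio was -2.70 (interval -3.36 to -2.09), and endothelial barcodes held 0.989 and 0.814 CPM. Cyp2b10 has near-identical relatives, so its reads are uncertain. Of the 20 genes for retinoid, xenobiotic and oxidant defense, 13 were counted over all AT2-like members, of which 1 was 2-fold higher and 3 lower, where 1.80% and 1.89% of all 3114 genes were. The other 2 low genes were Aldh1a1 and Gpx3, in which 1 control barcode held 70.6% and 60.5% of the control UMIs, and without it their log2 ratios were -0.39 and -0.45. The higher gene was Cyp4b1, with 59 against 101 UMIs. A single metastatic barcode held 28 of them, and without it the log2 ratio was 0.67.

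**Figure D4:**
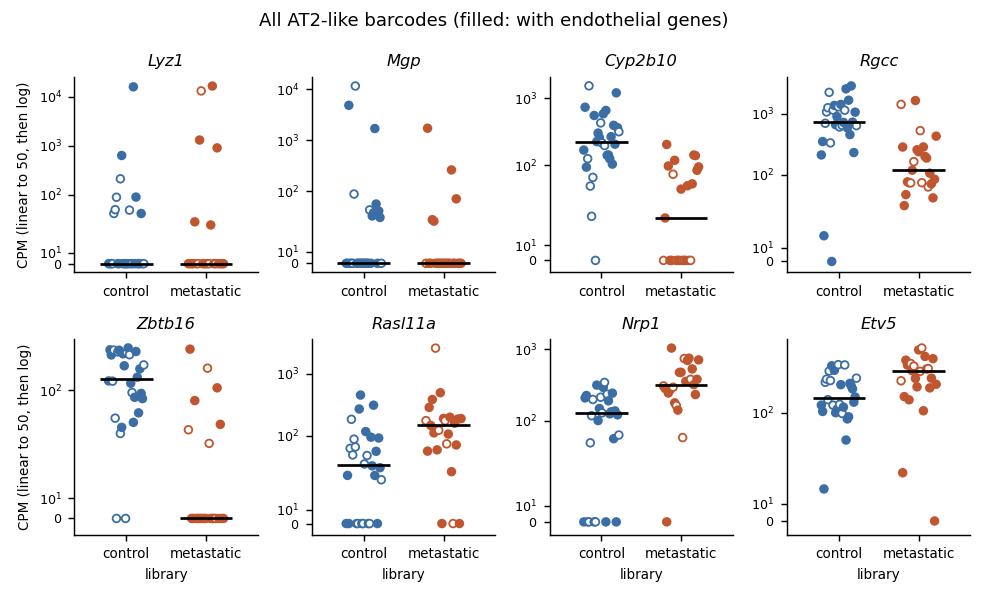
Points are CPM values of all 28 control and 23 metastatic AT2-like barcodes for 8 genes, on an axis that is linear to 50 CPM and logarithmic above, with the median as a bar and filled points for barcodes with endothelial genes. Lyz1 and Mgp are high in a few barcodes of both libraries, the medians of Rgcc, Cyp2b10 and Zbtb16 are lower in the metastatic library, and those of Rasl11a, Nrp1 and Etv5 are higher.

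Other genes at the low end were Pmvk, a kinase of the mevalonate pathway to cholesterol, and Tmem243. Pmvk ran from 66.4 over 361 to 1425 CPM in control and from 0 over 82.0 to 1355 CPM in metastatic AT2-like members, a log2 ratio of -1.07 (interval -1.40 to -0.76), and -0.96 without the highest control barcode. Tmem243 had a log2 ratio of -0.99 (interval -1.26 to -0.72). Pon1, an esterase on the club cell list, had 83 against 9 UMIs. Its log2 ratio was -2.92 (interval -4.09 to -1.92), and -2.91 in endothelial barcodes, which held 1.15 and 0.154 CPM.

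Of the 20 growth factor and receptor genes 9 were counted over all AT2-like members, of which 4 were 2-fold higher, where 1.80% of all 3114 genes were, and none lower. Without endothelial genes 1 was counted and not past 2-fold, and the list summed to 839 and 905 CPM, against 678 and 1048 CPM over all AT2-like members. Bmp4, a secreted ligand of AT2 and capillary niches, had 23 against 57 UMIs and a log2 ratio of 1.60 (interval 0.88 to 2.36). Vegfa, the ligand through which alveolar epithelium maintains capillaries, had 28 against 48 UMIs, a log2 ratio of 1.07 (interval 0.37 to 1.79), and Areg had 38 against 64 UMIs, a log2 ratio of 1.04 (interval 0.44 to 1.66). A single metastatic barcode held 26 of the Areg UMIs, and without it the ratio was 0.37. AT2-like members without endothelial genes had 22 against 3 Areg UMIs, the opposite direction. The airway-like metastatic barcode, which is not AT2-like, held 28 more. For Vegfa the ratio without the highest metastatic barcode was 0.95. The other was Kdr, an endothelial receptor, at 471 and 597 CPM in endothelial barcodes. More metastatic than control members held as much endothelial RNA as endothelial barcodes do, and its part in the ratios of single genes was not tested.

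Nrp1, a co-receptor for VEGF and semaphorins, ran from 0 over 128 to 345 CPM in control and from 0 over 321 to 1042 CPM in metastatic AT2-like members. Its log2 ratio was 1.57 (interval 1.21 to 1.95), and 1.63 (interval 0.89 to 2.40) without endothelial genes, while endothelial barcodes, at 535 and 651 CPM, had one of 0.28. Rasl11a, a small GTPase, had a log2 ratio of 1.48 (interval 0.97 to 2.01), with a single barcode holding 33.3% of the metastatic UMIs and a ratio of 0.93 without it.

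Stress and inflammatory lists gave few genes past 2-fold, as did all 763 genes, with 1.44% higher and 3.93% lower. Of 12 immediate early genes counted in AT2-like members without endothelial genes none was past 2-fold. Fos had a log2 ratio of -0.85 (interval -1.23 to -0.49) there, and Jun one of -0.03. Of the NF-kB genes 2 were counted: Nfkbia, the inhibitor that feeds back on NF-kB, had 43 against 7 UMIs, a log2 ratio of -1.68 (interval -3.08 to -0.51), with 48.8% of the control UMIs in 1 barcode and a ratio of -0.94 without it, and Icam1 had one of 0.21. Over all AT2-like members Nfkbia had a log2 ratio of -0.09 (interval -0.42 to 0.23), none of the 4 genes counted was past 2-fold, and the list summed to 735 and 827 CPM. Mt1, a metallothionein, had a log2 ratio of -0.76 (interval -1.44 to -0.13), against 0.75 in endothelial barcodes.

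None of 5 heat shock genes and none of 3 alveolar regeneration genes was past 2-fold in AT2-like members without endothelial genes. Over all 763 genes 1.44% were higher and 3.93% lower, so lists this short cannot show fewer. Over all AT2-like members 7 regeneration genes were counted, of which Areg was higher as above. In AT2-like members without endothelial genes no clock gene and no interferon-stimulated gene reached 50 UMIs, with 8 of the 12 interferon genes at 0. Over all AT2-like members 1 clock and 2 interferon genes were counted, none past 2-fold, and the interferon list summed to 459 and 681 CPM. Without endothelial genes that list went the other way, at 169 and 99.7 CPM on 39 and 12 UMIs. Endothelial barcodes held 2577 and 3175 CPM of it, and the part of endothelial RNA was not tested.

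**Figure D5:**
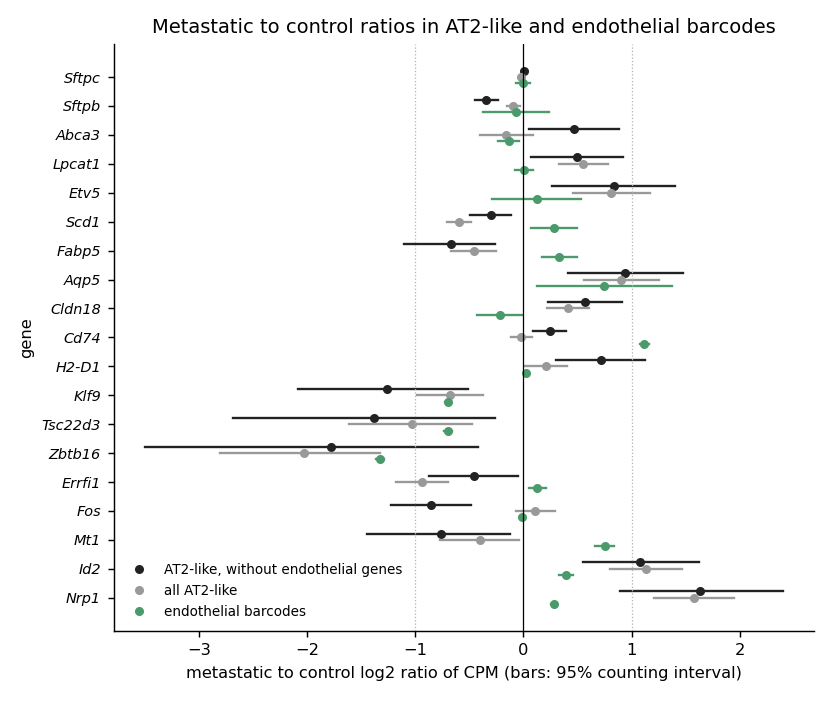
Points are metastatic to control log2 ratios of CPM, with bars for the 95% counting interval, for 19 genes in AT2-like barcodes without endothelial genes (black), all AT2-like barcodes (gray) and endothelial barcodes (green). Sftpc lies at 0 in each, Klf9, Tsc22d3 and Zbtb16 lie below 0 in each, and Cd74 and Mt1 are higher in endothelial than in AT2-like barcodes.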

How the data were processed

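Single-cell libraries were made from PECAM1-sorted lung cells of 1 control and 1 metastatic pool. The authors made the deposited counts with Cell Ranger (version 3.1.0 per the file headers) on mm10, as whole UMIs per gene and barcode before any cell filter. The annotation release is not given in the sources used here. From these counts, barcodes were filtered and chosen as described above, UMIs were summed over barcodes of a library and divided by all their UMIs (CPM), and ratios were taken between libraries for genes with at least 50 UMIs. A gene was counted as higher or lower at 2-fold. Intervals of CPM are exact Poisson, those of ratios exact conditional binomial and those of shares Clopper-Pearson, all at 95%. UMIs merge copies of a molecule, and the intervals cover counting error only.

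AT2-like barcodes had at least 10 of 15 AT2 markers and at least 1% Sftpc UMIs. The named genes are those of 17 function lists and of marker lists, the 20 with the highest ratio to endothelial barcodes (at least 100 UMIs) and the 10 highest and 10 lowest ratios between libraries. Other genes named were chosen after their values were seen. The members and lists were chosen with earlier results of these data known. Thinning drew 2000 UMIs of each barcode, with a fixed seed. Doublets were marked from simulated pairs of barcodes with an assumed rate of 0.8% per 1000 barcodes and were not removed. Dispersion is the sum of squared Pearson residuals over barcodes divided by their number less 1. The ratio and interval code was tested on simulated data. Alternatives covered the gene limit, the number of rule genes, thinning, the set of members, scaling and the UMI minimum. Python 3.11.15 was used with NumPy 2.4.6, SciPy 1.17.1, pandas 2.3.3, scikit-learn 1.9.0 and matplotlib 3.10.9. Genes were identified by their symbols in the deposited tables.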

Additional observations from a re-analysis of the deposited data

Results flagged for a closer look

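For 9 genes of the lists, the metastatic to control log2 ratio lay above 0 in the AT2-like members without endothelial genes and below 0 in the endothelial barcodes, or the reverse, with both counting intervals clear of 0. The difference between the cell types was not tested, since each group held 1 library. The lipid pump Abca3 had a log2 ratio of 0.47 in the AT2-like members and -0.14 in the endothelial barcodes. Cldn18 had 0.57 and -0.22, and the chloride channel gene Clic3 had 0.94 and -0.58. Sftpa1 had 0.090 and -0.19, on endothelial counts that free RNA can supply.

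In the other direction, Errfi1 had a log2 ratio of -0.45 in the AT2-like members and 0.13 in the endothelial barcodes. Fabp5 had -0.67 and 0.33, and Scd1 had -0.30 and 0.28. The immediate early gene Ier2 had -0.95 and 0.07, and Mt1 had -0.76 and 0.75. TMM scaling lowers each AT2-like ratio by 0.21, which turns that of Sftpa1 below 0.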

How the results depend on the processing

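The shares of epithelial barcodes stayed within 0.322 to 0.439% in the control and 0.263 to 0.417% in the metastatic library under most alternatives. With at least 2 of the 6 genes they were 0.581% and 0.593%, AT2-like shares were 66.7% and 61.5%, and 70 genes were higher. With at least 4 of the 6 genes the AT2-like share was 100% in the control library, and with at most 5000 genes it was 100% in the metastatic library. Thinning gave 17.2% and 32.0% of members with endothelial genes.

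The ratios between libraries changed where the airway-like barcode was left out. Without the member with the most UMIs of each library, and equally with at most 5000 genes, the median log2 ratio of the surfactant list was 0.15 instead of -0.49, 10 genes were higher and 28 lower, and the ratios of Scgb1a1, Hp, Aldh1a1 and S100a6 turned to -2.46, -0.00307, -3.68 and -1.83. With all members 76 genes were higher and Aldh1a1 was at -0.035. The mean of single-member CPM gave a surfactant median of -0.074 and 38 lower genes. A minimum of 20 UMIs gave 118 higher and 250 lower genes, and one of 100 UMIs gave 13 and 19, from more and fewer genes counted.

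Other alternatives were chosen after seeing the data. AT2-like members only gave 0.13, 11 higher, 30 lower, and -2.23, -0.38, -3.45 and -1.68 for Scgb1a1, Hp, Aldh1a1 and S100a6. All AT2-like members gave -0.033 and 56 higher, with -0.75, -0.21, -2.03 and -1.91 for the same genes, -1.71 for Cyp2f2 and 0.058 for Ang. TMM scaling of AT2-like members gave 4 higher, with -2.44, -0.58, -3.66 and -1.89. AT2-like members without the one with mesenchymal genes gave 0.036, 12 higher, 26 lower, -2.31 for Scgb1a1 and -0.44 for Hp. Leaving out the barcode with most UMIs of a gene took Areg, Vegfa, Id2, Rasl11a, Ctnnd1, Cyp4b1, Tsc22d3, Pmvk, Nfkbia, Aldh1a1 and Gpx3 below 2-fold, as given above. Of the ratios of the 20 genes at the ends of the list under all alternatives, 268 stayed near the first value, 59 moved and 25 changed sign.

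No paired analysis was possible because each group held 1 library. Limits are the 11 and 6 AT2-like barcodes without endothelial genes, in which a gene with 50 UMIs has a wide interval, the barcodes of 1 pool, which are not replicates, and endothelial RNA in most members. Mitochondrial shares and UMI totals of the members differed from those of the endothelial barcodes, and their part in the values was not tested.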

Other observations

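Barcodes with at least 300 but under 1000 genes met the epithelial rule in 2 cases in the control and 1 in the metastatic library. The control member with the most UMIs, 53060, held 522 UMIs of endothelial markers, 8 of 10 mesenchymal markers and 5 of 6 platelet markers, with 259 UMIs of Mgp. A metastatic member with 35214 UMIs held 382 UMIs of endothelial markers, 6 mesenchymal markers and 61 UMIs of Mgp. Both were AT2-like, with AT2 markers at a lower share of their UMIs than in most members.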
